A study of Homo sapiens with 16 samples.

Results

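The response of wild-type U2OS cells to 5-fluorouracil (5-FU) was read from 8 of the 16 RNA-seq libraries of the series, taken by the genotype and treatment in their titles. U2OS is an established human osteosarcoma line. The 8 libraries came from wild-type (WT) cells numbered 1 and 2, each grown with 50 µM 5-FU or with the solvent DMSO for 24 h in each of 2 experiments, giving 4 DMSO and 4 5-FU libraries. Each experiment was sequenced by its own vendor. A DMSO and a 5-FU library of the same cells number and experiment formed a pair. Pairs 1 and 2 are cells 1 and 2 of experiment 1, and pairs 3 and 4 are cells 1 and 2 of experiment 2. The other 8 libraries came from isogenic cells edited with CRISPR/Cas9 to carry the W329G change in MDM2 and treated the same way, and they were used only to set the wild-type response beside another genotype. Whether each wild-type line is a single clone is not given in the sources used here, so the p-values below measure the spread among these 4 pairs, and not among independent lines.

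5-FU is a uracil analogue that cells convert to fluorinated nucleotides. Among these, FdUMP blocks thymidylate synthase, the enzyme that makes dTMP, while others enter DNA in place of thymine or enter RNA and disturb the processing of ribosomal RNA. Free ribosomal proteins then bind MDM2, the ubiquitin ligase that keeps p53 low, and p53 accumulates and switches on its target genes. CDKN2A, which encodes the p14ARF and p16 inhibitors of MDM2 and of the G1 kinases, stayed between 0 and 1.08 CPM in the 8 libraries, where CPM are counts scaled to the total of each library.

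The 8 libraries held 24715999 to 56877328 counts, of which 98.08% to 98.9% fell in the 28690 genes that could be joined by symbol between the experiments. CPM are not per length, so they compare one gene between libraries and not one gene with another. The osteoblast markers COL1A1 (2840 to 8880 CPM), SPARC (1610 to 4130 CPM) and RUNX2 (28.6 to 75.1 CPM) were expressed in all 8 libraries, whereas SP7, IBSP and DMP1 were at or close to 0, as was TWIST1, and 6 of the 16 osteoblast markers were under 1 CPM in all 8. Together these markers summed to 4920 to 9200 CPM under DMSO and 6130 to 12800 CPM under 5-FU. Of 13 blood markers, 9 stayed under 1 CPM in every library. LYZ, which encodes lysozyme, ranged from 0 to 102 CPM. Epithelial markers summed to 303 to 655 CPM under DMSO and 367 to 772 CPM under 5-FU, most of it from KRT8 and KRT18. The 13 protein-coding mitochondrial transcripts took 19.6% ± 4.48 of all counts under DMSO and 23.8% ± 5.73 under 5-FU (SD, n = 4). That share was higher under 5-FU in each of the 4 pairs, by 7.0, 3.86, 1.88 and 4.05 percentage points, and the exact permutation test gave p = 0.12, the smallest that 4 pairs allow.

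The response was broad and nearly balanced in direction. Of 15614 genes tested, 3800 (24.3%) passed an adjusted p of 0.05, of which 1907 rose (12.2% of the genes tested) and 1893 fell (12.1%). Most changes were small. The median size among the called genes was 0.57 on the log2 scale, 459 genes rose at least 2-fold and 215 fell at least 2-fold. The increases were the larger ones: NECTIN4 reached a log2 fold change of 3.50, and among genes with a mean of at least 5 CPM the steepest fall outside a pseudogene was -2.36 for FAM111B. In 3657 of the 3800 called genes the 4 pairs shared 1 sign, and in 1155 the 5-FU and DMSO libraries did not overlap. Both counts were taken among genes picked by their p in these same pairs, so they describe the calls and give no separate support for them. Without the pair in the model, with a term for experiment alone, 1065 genes were called, all of them among the 3800, and 2458 were called without pair 2. The median over all genes tested was 0.03, and changes below are read against that centre. The scaling of the libraries (TMM factors) assumes that most genes do not change and so places the centre near 0. A shift shared by most genes could not be seen here.

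**Figure D1:**
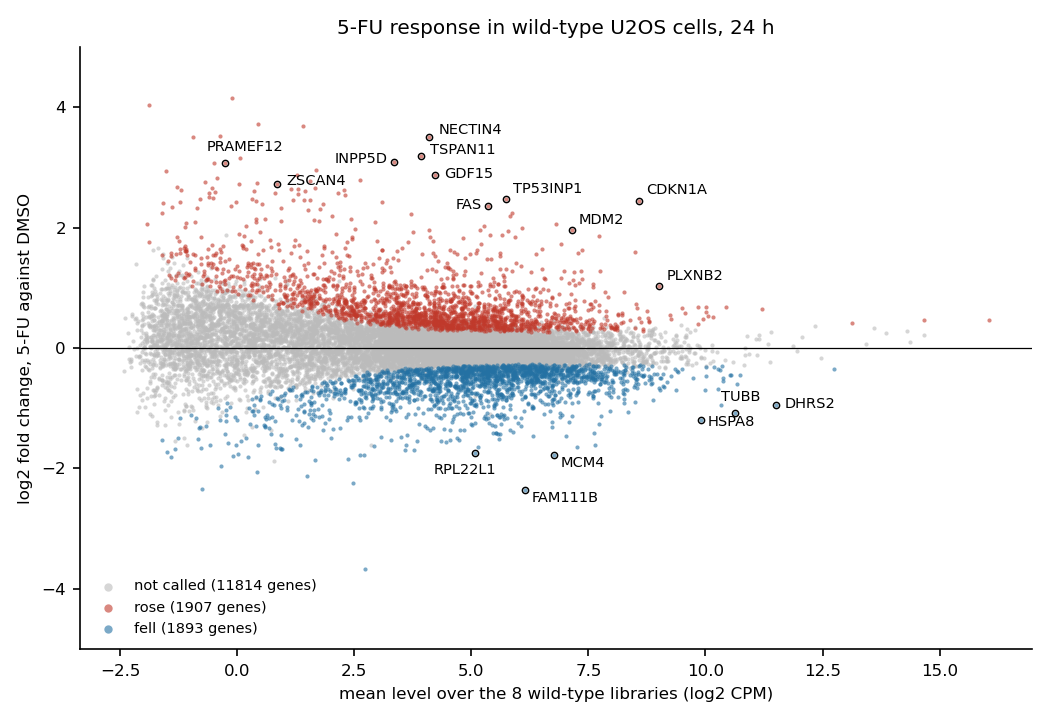
Log2 fold change of 5-FU against DMSO (vertical axis) against the mean level over the 8 wild-type libraries in log2 CPM (horizontal axis), 1 point per gene tested, with 1907 genes that rose in red, 1893 that fell in blue and 11814 not called in grey. Named genes are those described in the text: the largest increases reach past 3 on the log2 scale, while genes of high level such as DHRS2, TUBB and HSPA8 lie among those that fell.

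MDM2 and CDKN1A rose in every pair. MDM2, whose own gene is a p53 target, was at 40.5, 46.0, 72.5 and 76.3 CPM under DMSO and 191, 186, 283 and 234 CPM under 5-FU. Every 5-FU library lay above every DMSO library, and the log2 fold change was 1.96 ± 0.11 (edgeR adjusted p = 2.08e-06). CDKN1A, which encodes the CDK inhibitor p21, was at 114, 163, 100.6 and 77.6 CPM under DMSO and 802, 1034, 417 and 374 CPM under 5-FU. The groups did not overlap, the 2 libraries of experiment 1 were the highest under 5-FU, and the log2 fold change was 2.45 ± 0.13 (edgeR adjusted p = 1.80e-06). Among the listed genes of the feedback around p53, 7 rose. BTG2, an antiproliferative factor, rose from 20.2 to 95.9 CPM (2.25 ± 0.13), TRIM22 from 21.2 to 59.7 CPM (1.47 ± 0.11), and TRIAP1, a small inhibitor of apoptosome assembly, from 26.7 to 57.2 CPM (1.07 ± 0.11); here and below a pair of CPM values gives the DMSO and the 5-FU mean of 4 libraries, and a value with ± gives the log2 fold change and its standard error.

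Most of the listed p53 targets rose. Of 20 arrest and repair targets, 17 rose, against 12.2% of all genes, with a list median of 0.82. ZMAT3, an RNA-binding protein, rose from 26.8 to 108 CPM (2.00 ± 0.12). RRM2B, the p53-inducible small subunit of ribonucleotide reductase, was at 83.4, 119.5, 75.0 and 89.1 CPM under DMSO and 395, 394, 288 and 256 CPM under 5-FU. Its groups did not overlap and it rose by 1.86 ± 0.12. Of 24 cell death targets tested, 15 rose and 1 fell (2 without pair 1). TP53INP1 rose from 16.3 to 90.8 CPM (2.47 ± 0.10), the death receptor gene FAS from 13.2 to 69.0 CPM (2.37 ± 0.14), BBC3, which encodes the BH3-only protein PUMA, from 12.5 to 44.1 CPM (1.83 ± 0.12), and the AKT inhibitor PHLDA3 from 44.6 to 138 CPM (1.64 ± 0.10). BID, another BH3-only gene, fell from 20.1 to 13.7 CPM (-0.67 ± 0.15).

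Of 24 metabolic and redox targets, 23 rose (median 0.89). FDXR, a mitochondrial ferredoxin reductase, rose from 56.2 to 184 CPM (1.73 ± 0.10), SESN1, a sestrin that restrains mTORC1, from 8.17 to 28.0 CPM (1.77 ± 0.13), and CMBL, a hydrolase, from 15.4 to 43.3 CPM (1.49 ± 0.12). Of 39 less studied p53 targets, 34 rose (median 1.01). In the arrest and repair, metabolic, less studied and RFX7-linked lists, no member fell by the edgeR test, by DESeq2 or at an unadjusted p under 0.05, though 1 arrest and repair target fell without pair 1. Among the increases in the less studied list were INKA2 (2.20 ± 0.12), SUSD6 (1.62 ± 0.10), EPS8L2 (1.95 ± 0.15) and SERPINB5, the serpin maspin, which rose from 2.93 to 14.02 CPM (2.43 ± 0.19). Of 17 genes linked to RFX7, a transcription factor downstream of p53, 14 rose (median 0.76), among them PIK3IP1, an inhibitor of PI3 kinase (1.97 ± 0.12), ABAT, the GABA transaminase (1.23 ± 0.12), and DDIT4, another brake on mTORC1 (0.90 ± 0.10). These lists come from general knowledge of p53 and share members.

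The 4 largest increases among genes with a mean of at least 5 CPM were in genes of low level under DMSO. NECTIN4, a cell adhesion molecule of the nectin family (chromosome 1, 161070995 to 161089599, minus strand), was at 2.25, 4.51, 1.69 and 1.71 CPM under DMSO and 50.5, 45.2, 12.4 and 18.5 CPM under 5-FU. The lowest 5-FU library exceeded the highest DMSO library, and the 2 libraries of experiment 1 were the highest (3.50 ± 0.21, edgeR adjusted p = 2.08e-06). TSPAN11, a tetraspanin, was at 2.25, 4.36, 3.58 and 1.41 CPM under DMSO and 34.4, 39.8, 20.5 and 14.5 CPM under 5-FU. Its groups did not overlap (3.20 ± 0.19). INPP5D, the lipid phosphatase SHIP1 that is best known in blood cells, was at 2.37, 1.93, 2.32 and 1.66 CPM under DMSO and 26.2, 11.8, 18.6 and 16.3 CPM under 5-FU. It too had no overlap, and unlike NECTIN4 its 5-FU levels did not separate the experiments (3.10 ± 0.16). GDF15, a secreted stress cytokine of the TGF-beta superfamily, was at 6.58, 7.70, 2.48 and 0.359 CPM under DMSO and 43.4, 72.0, 14.1 and 3.36 CPM under 5-FU. It rose in all 4 pairs by 2.87 ± 0.15, yet the groups overlapped because pair 4 was lower than the others under both treatments.

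Below these came SLC52A1, a riboflavin transporter (2.79 ± 0.18), GRIN2C, an NMDA receptor subunit (2.23 ± 0.20), KANK3 (2.14 ± 0.19), SUGCT (2.10 ± 0.17) and CYFIP2, a subunit of the WAVE actin regulatory complex (2.06 ± 0.10). Reads over INKA2, KANK3 and CYFIP2 may in part belong to the overlapping genes RAP1A, RPS28 and ADAM19, since the strand setting of the counting is not given and the neighbours hold at least as many counts. The same caution holds for TRIM22 and TRIM5, DGKA and PYM1, HSPE1 and HSPD1, and UCK2 and TMCO1. Of the 1907 genes that rose, 1582 were in none of the 58 lists. Those with the smallest p included PLCXD2 (1.87 ± 0.11), which overlaps PHLDB2, FHL2, a LIM domain cofactor that went from 79.0 to 252 CPM (1.63 ± 0.10), DGKA, a diacylglycerol kinase (1.58 ± 0.11), ATOSA (1.66 ± 0.12), MYEOV (1.26 ± 0.09), TNFRSF14, the receptor HVEM (1.93 ± 0.14), PARD6G, a cell polarity protein (1.54 ± 0.11), and ALOX5, the 5-lipoxygenase that starts leukotriene synthesis (1.45 ± 0.11). NBEAP1, annotated as a pseudogene, went from 0.361 to 4.92 CPM. Ranked by the difference in CPM, which is not per length, increases included the mitochondrial MT-CO3 from 21820 to 30320 CPM, FN1, the matrix protein fibronectin, from 1030 to 1729 CPM (0.68 ± 0.17), DCBLD2 from 790.5 to 1273 CPM, the lysosomal gene PSAP from 925 to 1364 CPM and AHNAK from 703 to 1136 CPM. FN1 was not called without pair 2, at 0.51.

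**Figure D2:**
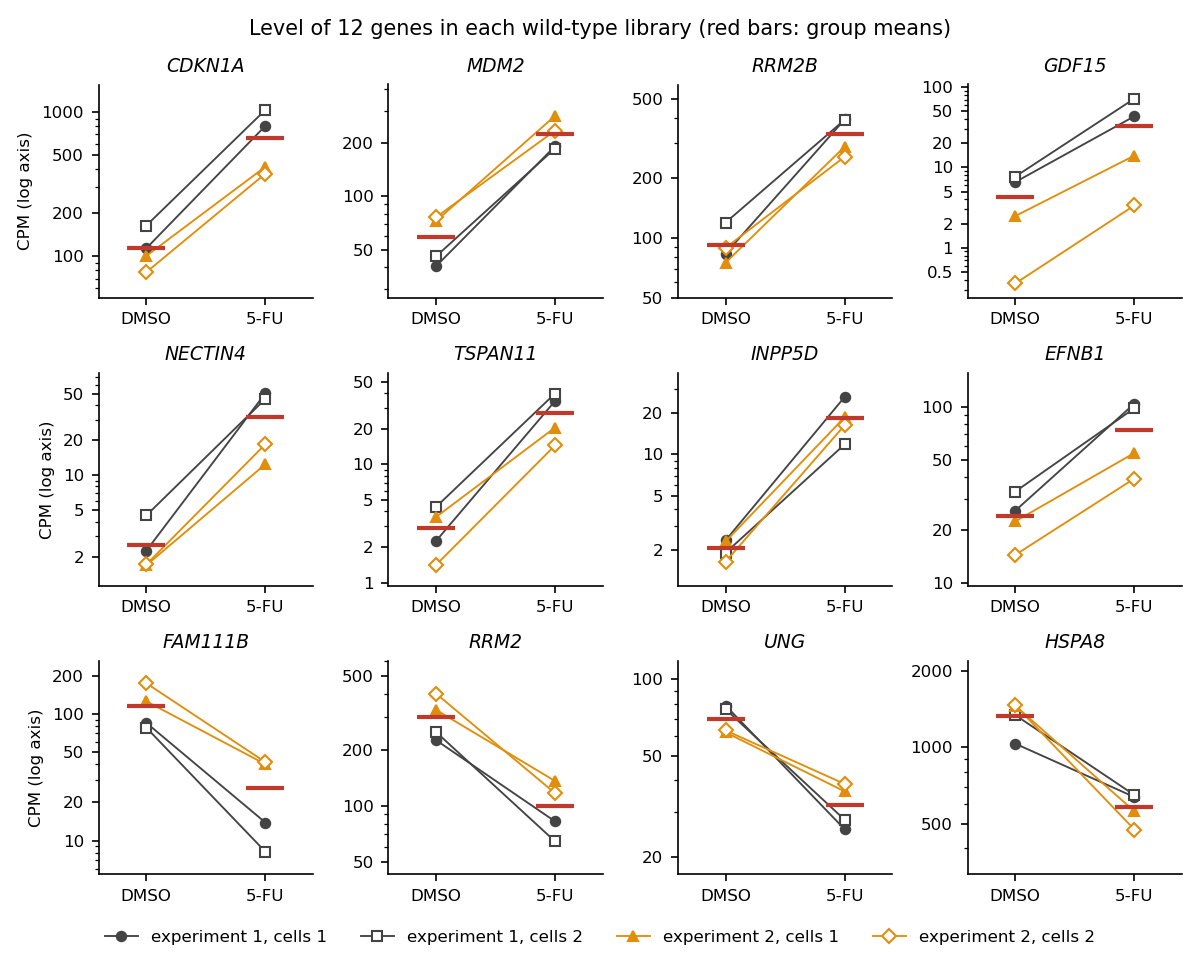
Level in each of the 8 wild-type libraries (CPM, log axes) for 12 genes, with lines joining the DMSO and 5-FU library of a pair, symbols giving experiment and cells number, and red bars giving group means. CDKN1A, MDM2, NECTIN4, TSPAN11, INPP5D, RRM2B and EFNB1 are higher in all 5-FU libraries than in all DMSO libraries, FAM111B, RRM2, UNG and HSPA8 are lower, and GDF15 overlaps between groups while moving the same way in each pair.

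To see whether the letters of a p53 site stood near the starts of these genes, RefSeq promoter windows on GRCh38.p14 (250 bases before to 50 bases after a start, any start of the gene) were searched on both strands for the consensus p53 site of 20 bases, with the core C and G of each decamer kept and at most 2 mismatches elsewhere. Windows were found for 11851 of the genes tested. A match was rare, in 0.359% of all 27305 genes with a promoter window and in 0.346% (41) of the tested ones. It was present in 1.2% of the genes that rose (17 of 1416), in 2.92% of those that rose at least 2-fold (9 of 308) and in 0.196% of those that fell (3 of 1532). The 17 included MDM2, FAS, AEN, DDB2, PANK1, GPX1 and PTCHD4, and the 3 that fell included TP73. PTCHD4, a Patched-related membrane protein, was the only tested gene with a match free of mismatches. The window at the second MDM2 promoter, which is the p53-responsive one, and that of PTCHD4 are shown for that reason, 5′ to 3′ along the gene's strand, with the matching 20 bases in capitals. In MDM2 the match starts 94 bases before the start of the transcript and has 2 mismatches, and in PTCHD4 it starts 20 bases before.
MDM2, chr12:68808767-68809016, plus strand: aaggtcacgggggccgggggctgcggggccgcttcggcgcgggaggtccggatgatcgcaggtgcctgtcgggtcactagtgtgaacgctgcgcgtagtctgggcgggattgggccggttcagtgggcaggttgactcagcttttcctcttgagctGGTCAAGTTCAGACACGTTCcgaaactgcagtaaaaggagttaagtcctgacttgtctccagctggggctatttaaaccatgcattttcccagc
PTCHD4, chr6:48111198-48111447, minus strand: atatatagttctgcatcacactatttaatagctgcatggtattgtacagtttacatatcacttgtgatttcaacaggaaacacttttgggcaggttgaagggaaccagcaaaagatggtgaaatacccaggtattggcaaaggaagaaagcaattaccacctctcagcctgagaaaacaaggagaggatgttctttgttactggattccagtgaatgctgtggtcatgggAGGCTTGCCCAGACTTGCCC
PTCHD4 was at 4.05, 6.59, 5.64 and 2.96 CPM under DMSO and 11.98, 18.9, 17.4 and 6.30 CPM under 5-FU, with a log2 fold change of 1.46 ± 0.14. Most genes that rose have no match in these windows, which do not cover introns or distant elements, and a match is a run of letters, not a site shown to be bound.

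Secreted factors mostly rose or were not called, while guidance and adhesion genes rose more often than all genes and fell at shares near that of all genes. Of 39 secreted growth factors and cytokines tested, 19 rose (48.7%, against 12.2% of all genes) and 1 fell (median 0.51). Beside GDF15 the increases included PDGFA (30.2 to 64.6 CPM, 1.06 ± 0.10), the EGF-family ligand NRG1 (13.03 to 24.9 CPM, 0.94 ± 0.10) and CSF1, the macrophage colony-stimulating factor (13.2 to 33.2 CPM, 1.32 ± 0.15). Of 49 ephrin, semaphorin and plexin genes, 12 rose (24.5%) and 7 fell (14.3%, against 12.1% of all genes), with a median of 0.07. The ligand EFNB1 was at 25.7, 33.0, 22.3 and 14.4 CPM under DMSO and 104, 98.3, 54.7 and 39.1 CPM under 5-FU. Its groups did not overlap (1.58 ± 0.12). The receptor EPHA2 (1.28 ± 0.11), the secreted guidance cue SEMA3B (1.26 ± 0.12) and the semaphorin receptor PLXNB2 (349 to 687 CPM, 1.03 ± 0.13) rose as well, whereas SEMA3E (-1.11 ± 0.15) and EPHA5 (-1.02 ± 0.19) fell. Of 48 adhesion and junction genes, 14 rose (29.2%) and 6 fell (12.5%; 3 without pair 3). The tetraspanin CD82 rose from 13.2 to 64.5 CPM (2.03 ± 0.18) and TSPAN5 from 61.1 to 107 CPM (0.80 ± 0.10), while the neural adhesion genes CDH4 (-0.64 ± 0.11) and NCAM1 (-0.48 ± 0.12) fell.

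Genes of the extracellular matrix and its turnover rose more often than they fell. Of 53 matrix genes, 13 rose (24.5%, against 12.2% of all genes) and 2 fell (3.77%, against 12.1%), with a median of 0.32. Those that rose included PLAU, a plasminogen activator (30.5 to 62.2 CPM, 0.95 ± 0.11), the fibrillin FBN2 (0.74 ± 0.09) and the laminin chain LAMB3 (0.66 ± 0.10). The collagen cross-linking enzyme LOX fell (-0.56 ± 0.09). The matrix count moved with single pairs, with 7 without pair 2 and 25 without pair 3, and the list median was 0.55, 0.42, -0.06 and 0.24 in pairs 1 to 4. It also differed between the experiments. Fitted alone, experiment 1 called 34 matrix genes as rising and experiment 2 called 7, against 2160 and 989 of all genes tested. Of 27 TGF-beta signalling and target genes, 9 rose (33.3%, 5 without pair 2) and 1 fell (3.7%, 0 without pair 1). In experiment 1 alone 11 rose and 2 fell, and in experiment 2 alone 2 rose. LTBP2, a latent TGF-beta binding protein, rose from 159.6 to 262 CPM (0.72 ± 0.12).

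Some early response genes and brakes on signalling pathways rose, and pair 3 had the lowest median of the 4 pairs in the early response and NF-kB lists. That was not particular to these lists. Pair 3 also had the smallest median change in the replication (-0.85), G2 and mitosis (-0.32) and cell death target (0.55) lists. In the ATF4 list its change was the largest (-0.81). Of 29 immediate early and AP-1 genes, 14 rose (48.3%, against 12.2% of all genes) and 1 fell (3.45%), with a median of 0.38. The count that rose was 7 without pair 2 and 9 without pair 4, and 0 fell with any pair left out. MAFF (12.6 to 25.2 CPM, 1.02 ± 0.13), the stress-induced ATF3 (8.54 to 17.8 CPM, 1.01 ± 0.13) and IER5 (0.72 ± 0.10) were among the increases, as was CCN1, a matricellular protein that is also a YAP target (205 to 407 CPM, 0.94 ± 0.13). The list medians of the pairs were 0.43, 0.59, -0.02 and 0.43. Of the same list, 18 genes rose in experiment 1 alone and 4 in experiment 2 alone. Of 20 feedback inhibitors of MAPK signalling, 10 rose (50.0%, 5 without pair 2), including the dual-specificity phosphatases DUSP14 (0.70 ± 0.10), DUSP5 (0.70 ± 0.13) and DUSP1 (0.68 ± 0.13). In experiment 1 alone 10 rose, while in experiment 2 alone 0 were called as rising by edgeR or by DESeq2. The list median was 0.44 in experiment 1 and 0.23 in experiment 2. Of 26 YAP targets, 10 rose (38.5%, 5 without pair 1 and 3 without pair 2), including F3, which encodes tissue factor (0.74 ± 0.10). In experiment 1 alone 14 rose, and in experiment 2 alone 2 rose and 1 fell. Of 25 NF-kB and inflammatory genes, 10 rose (40.0%) and 1 fell (4.0%), with a median of 0.32 (by pair 0.57, 0.61, 0.07 and 0.21). The chemokine CCL2 was at 16.4, 20.6, 11.7 and 4.56 CPM under DMSO and 58.0, 52.9, 23.9 and 8.06 CPM under 5-FU. It rose in 4 of 4 pairs, but the groups overlapped (1.27 ± 0.15). TNFAIP2 (0.86 ± 0.11), the cytokine IL11 (0.98 ± 0.14) and the NF-kB subunit RELB (0.98 ± 0.15) also rose. Among 35 genes around PI3 kinase and mTOR, 14 rose (40.0%) and 4 fell (11.4%, 2 without pair 1, 1 without pair 2 and 1 without pair 3). The increases were led by INPP5D, PIK3IP1, SESN1 and SESN2 (17.4 to 56.7 CPM, 1.73 ± 0.15), and the insulin receptor INSR fell (-0.55 ± 0.12). Of 36 Wnt and Notch genes 3 rose and 3 fell (1 without pair 2 and 1 without pair 3). That is 8.33% each way, below the 12.2% and 12.1% of all genes. The receptor NOTCH1 (0.94 ± 0.17) was among those that rose, and the Wnt co-receptor LRP5 (-0.64 ± 0.14) among those that fell.

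Antigen presentation genes either rose or were not called, and interferon-stimulated genes rose more often than all genes while falling about as often. Of 26 antigen presentation genes, 7 rose (26.9%, against 12.2% of all genes). In experiment 1 alone 11 rose, and in experiment 2 alone 2 rose. None fell by the edgeR test or by DESeq2, with 2 lower at an unadjusted p under 0.05 and 1 called without pair 1. TAP1, a subunit of the transporter that loads peptides onto MHC class I, was at 37.2, 45.8, 21.6 and 17.7 CPM under DMSO and 99.9, 104, 49.5 and 49.5 CPM under 5-FU. All 4 DMSO libraries were lower than any 5-FU library (1.32 ± 0.10). The MHC class I genes HLA-B (225 to 340.2 CPM, 0.56 ± 0.12) and HLA-E (0.50 ± 0.10) and the related MR1 (1.01 ± 0.14) rose too. Of 36 interferon-stimulated genes, 9 rose (25.0%), with a list median of 0.10. The share that fell was near that of all genes, 4 of 36 (11.1%, against 12.1%). That count was 2 without pair 2, 2 without pair 3 and 2 without pair 4. OASL (0.72 ± 0.11) and IRF1 (0.54 ± 0.11) rose, while OAS3 (27.1 to 12.5 CPM, -1.15 ± 0.11) and CMPK2 (-1.76 ± 0.35) fell. The APOBEC3 cytidine deaminases split. APOBEC3C rose from 58.1 to 96.7 CPM (0.73 ± 0.10), APOBEC3D from 2.42 to 8.48 CPM and APOBEC3H from 0.0693 to 0.629 CPM, whereas APOBEC3B fell from 60.2 to 34.2 CPM (-0.83 ± 0.11). These paralogs are near-identical in places and APOBEC3D overlaps APOBEC3C, so the division of reads among them is uncertain. STING1, the adaptor of cytosolic DNA sensing, rose (0.91 ± 0.13), and 2 RNase H2 subunits, RNASEH2A (-0.54 ± 0.10) and RNASEH2B (-0.57 ± 0.12), fell.

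Nearly all listed replication genes fell. Of 55 tested, 54 fell, against 12.1% of all genes, and none rose by the edgeR test, by DESeq2 or at an unadjusted p under 0.05, with a median of -1.11 (by pair -1.34, -1.35, -0.85 and -0.91). The helicase subunit MCM4 was at 226, 243, 77.3 and 120.1 CPM under DMSO and 75.0, 74.8, 24.1 and 27.1 CPM under 5-FU. The 5-FU libraries were all lower, without overlap (-1.78 ± 0.11). RRM2, the S-phase subunit of ribonucleotide reductase, was at 226, 249.8, 328.9 and 402 CPM under DMSO and 82.3, 64.2, 136 and 117 CPM under 5-FU. Every 5-FU library lay below every DMSO library (-1.62 ± 0.12). The checkpoint adaptor CLSPN (-1.41 ± 0.10) and the flap endonuclease FEN1 (-1.47 ± 0.09), which overlaps FADS2, fell as well. FAM111B, a serine protease gene outside the lists (chromosome 11, 59107185 to 59127410, plus strand), was at 84.9, 77.8, 126 and 174 CPM under DMSO and 13.9, 8.16, 40.0 and 41.6 CPM under 5-FU. It had no overlap and fell by more in experiment 1 (-2.36 ± 0.21). The transcription factor E2F2 (-1.64 ± 0.20), cyclin CCNE2 (-1.69 ± 0.22), the p53 relative TP73 (-1.69 ± 0.21) and MYBL2 (442 to 212 CPM, -1.06 ± 0.09) fell, and CCNE2 and TP73 overlap INTS8 and WRAP73.

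Of 35 homologous recombination and Fanconi anaemia genes, 28 fell (median -0.78) and 1 rose (0 without pair 1, 0 without pair 2 and 0 without pair 3). The decreases included the nuclease EXO1 (-1.35 ± 0.11), BRCA1 (93.7 to 39.3 CPM, -1.30 ± 0.11) and the helicase BRIP1 (-1.14 ± 0.11). Mitotic genes had smaller medians. Of 46 G2 and mitosis genes, 37 fell (median -0.51), including the condensin subunit NCAPH (-0.99 ± 0.10), the midzone protein PRC1 (-0.83 ± 0.10), cyclin CCNA2 (-0.80 ± 0.10) and separase ESPL1 (-0.81 ± 0.10). Of 30 centromere and kinetochore genes, 26 fell (median -0.61), including ZWINT (-1.07 ± 0.10) and KNTC1 (-0.87 ± 0.10).

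Short words that E2F factors recognise (TTTCCCGC, TTTGGCGC, TTTGCCGC and TTTCGCGC, both strands, overlapping matches counted) were present in 3.99% of all genes with a promoter window and in 6.18% of the tested ones. They were present in 14.2% of the genes that fell (217 of 1532), in 25.0% of those that fell at least 2-fold (38 of 152) and in 3.25% of those that rose. Other short motifs differed less: TTTGAA stood in 18.5% of those that fell and 13.3% of those that rose, CCAAT in 48.0% and 42.3%, and TATAAA in 7.83% and 11.8%. The upstream 250 bases of E2F1, MCM6 and UNG are shown, 5′ to 3′ along the gene's strand and with the words in capitals, because each carries 1 or more words and each gene fell. In E2F1 the 2 words start 33 and 20 bases before the start, in MCM6 4 overlapping matches form 2 runs, and in UNG the word starts 63 bases before.
E2F1, chr20:33686386-33686635, minus strand: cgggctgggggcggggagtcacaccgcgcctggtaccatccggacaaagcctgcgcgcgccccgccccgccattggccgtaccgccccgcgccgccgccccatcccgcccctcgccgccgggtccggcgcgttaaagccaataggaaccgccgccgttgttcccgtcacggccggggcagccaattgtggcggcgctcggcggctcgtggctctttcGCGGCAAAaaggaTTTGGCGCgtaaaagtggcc
MCM6, chr2:135876444-135876693, minus strand: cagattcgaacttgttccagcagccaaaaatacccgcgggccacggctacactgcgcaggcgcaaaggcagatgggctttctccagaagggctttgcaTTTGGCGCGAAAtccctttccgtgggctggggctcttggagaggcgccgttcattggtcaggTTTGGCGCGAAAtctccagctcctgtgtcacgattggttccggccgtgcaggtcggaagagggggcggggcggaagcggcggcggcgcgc
UNG, chr12:109097922-109098171, plus strand: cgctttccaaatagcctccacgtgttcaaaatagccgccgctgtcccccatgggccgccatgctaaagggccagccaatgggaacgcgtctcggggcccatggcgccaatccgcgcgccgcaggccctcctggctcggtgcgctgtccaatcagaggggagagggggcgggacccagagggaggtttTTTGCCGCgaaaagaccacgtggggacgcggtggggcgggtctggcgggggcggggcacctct
E2F1 went from 66.3 to 26.6 CPM (-1.41 ± 0.19) and MCM6, another subunit of the replicative helicase, from 149.8 to 61.0 CPM (-1.30 ± 0.13). The words were counted in genes of all functions, and no occupancy was measured.

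**Figure D3:**
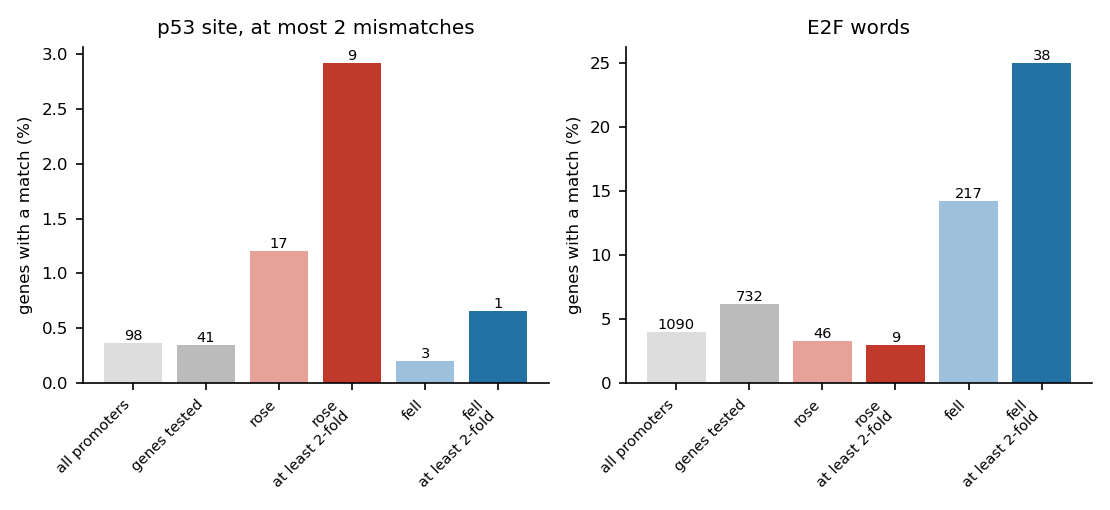
Share of genes (%, vertical axes from 0) whose RefSeq promoter windows hold a p53 site with at most 2 mismatches (left) or an E2F word (right), for all genes with a window, genes tested, and genes that rose or fell, with the number of genes with a match above each bar. The p53 match reaches 2.92% among genes that rose at least 2-fold on 9 genes, and the E2F words reach 25.0% among genes that fell at least 2-fold on 38 genes.

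Among enzymes of fluoropyrimidine metabolism and of uracil and mismatch repair, more fell than rose. TYMS, the thymidylate synthase that 5-FU inhibits, was at 269.8, 272, 430.4 and 419 CPM under DMSO and 199.2, 211, 394 and 294 CPM under 5-FU. It fell by 0.36 within pairs (edgeR adjusted p = 0.0205), and the groups overlapped. TYMS was not called without pair 1 (-0.35), without pair 2 (-0.38) or without pair 4 (-0.31). Of 28 fluoropyrimidine metabolism genes tested, 3 rose (10.7%, against 12.2% of all genes, and 1 without pair 2). In that list 8 fell (28.6%, against 12.1%), with a median of -0.22. The salvage kinases TK1 (251 to 135 CPM, -0.83 ± 0.12) and UCK2 (-0.54 ± 0.09), the reductase subunit RRM1 (-0.95 ± 0.11) and DUT, which removes dUTP (-0.76 ± 0.15), fell. Of 21 uracil excision and mismatch repair genes, 12 fell (57.1%) and 2 rose (9.52%, below the share over all genes). UNG, the main uracil DNA glycosylase, was at 78.7, 76.2, 61.8 and 62.8 CPM under DMSO and 25.6, 27.9, 36.1 and 38.6 CPM under 5-FU. The groups did not overlap, with all 5-FU libraries lower (-1.13 ± 0.15). The mismatch repair gene MSH6 (273 to 146 CPM, -0.91 ± 0.10) and the break sensor PARP2 (-0.87 ± 0.10) fell. SMUG1, a second uracil glycosylase, rose from 16.3 to 25.5 CPM (0.68 ± 0.12), and so did NEIL1 (0.95 ± 0.19), which overlaps MAN2C1.

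Most nuclear pore and import genes, and fewer of the chromatin and centrosome genes, fell. Of 42 nuclear pore and import genes, 27 fell (64.3%, 17 without pair 1 and 13 without pair 2), with a median of -0.36. NUP62 (-0.68 ± 0.09), the Ran exchange factor RCC1 (-0.62 ± 0.09), NUP210 (-0.73 ± 0.11) and the export receptor CSE1L (385 to 229.8 CPM, -0.76 ± 0.12) were among them. Of 54 chromatin regulators, 21 fell (38.9%, against 12.1% of all genes) and 6 rose (11.1%, near the 12.2% of all genes). The lamin LMNB1 was at 310.3, 271, 318 and 440.4 CPM under DMSO and 136, 118, 199.3 and 208 CPM under 5-FU. All 4 DMSO libraries were higher than any 5-FU library (-1.04 ± 0.11). The maintenance methyltransferase DNMT1 (-0.91 ± 0.10), the histone methyltransferase SUV39H1 (-0.87 ± 0.10) and the remodeler HELLS (-1.12 ± 0.15) fell, while the demethylase KDM5B (0.77 ± 0.09) and the architectural protein HMGA2 (0.58 ± 0.13) rose. Histone genes, whose main transcripts lack poly-A tails and are poorly captured here, gave 6 decreases of 27 tested (22.2%, 3 without pair 2), led by H2AX (177 to 99.1 CPM, -0.81 ± 0.13). They gave 2 increases (7.41%, 4 without pair 1, 0 without pair 3 and 1 without pair 4), H3C10 (0.64 ± 0.18) and H4C8 (0.60 ± 0.18). Neither was called without pair 3, at 0.50 for H3C10 and 0.41 for H4C8, or without pair 4, at 0.59 for H3C10 and 0.50 for H4C8. Of 51 centrosome and cilium genes, 17 fell (33.3%), among them PLK4, the kinase that starts centriole duplication (-1.08 ± 0.11), CENPJ (-0.94 ± 0.10), STIL (-0.87 ± 0.12) and gamma tubulin TUBG1 (-0.71 ± 0.09). In the same list 5 rose (9.8%, 2 without pair 2 and 3 without pair 3), among them BBS12 (0.70 ± 0.14).

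Tubulin genes were among the largest losses by difference in CPM, which is not per length. TUBB was at 1769, 2175, 2396 and 2227 CPM under DMSO and 716, 881, 1497 and 1106 CPM under 5-FU. The 5-FU libraries were all lower, without overlap (-1.07 ± 0.12). TUBA1B (1688 to 879 CPM, -0.95 ± 0.10), TUBB4B (-0.85 ± 0.09), TUBB2B (-1.39 ± 0.11) and TUBA3C (231 to 73.7 CPM, -1.64 ± 0.10) fell too, though reads of these close paralogs are hard to assign. Of 51 cytoskeleton genes in all, 15 fell (29.4%, against 12.1% of all genes). In that list 4 rose (7.84%, against 12.2%, and 2 without pair 1 and 2 without pair 2). ACTA2 rose from 1.46 to 6.67 CPM, but it overlaps FAS, and the actin cross-linker FLNC rose from 326 to 436 CPM (0.50 ± 0.12).

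**Figure D4:**
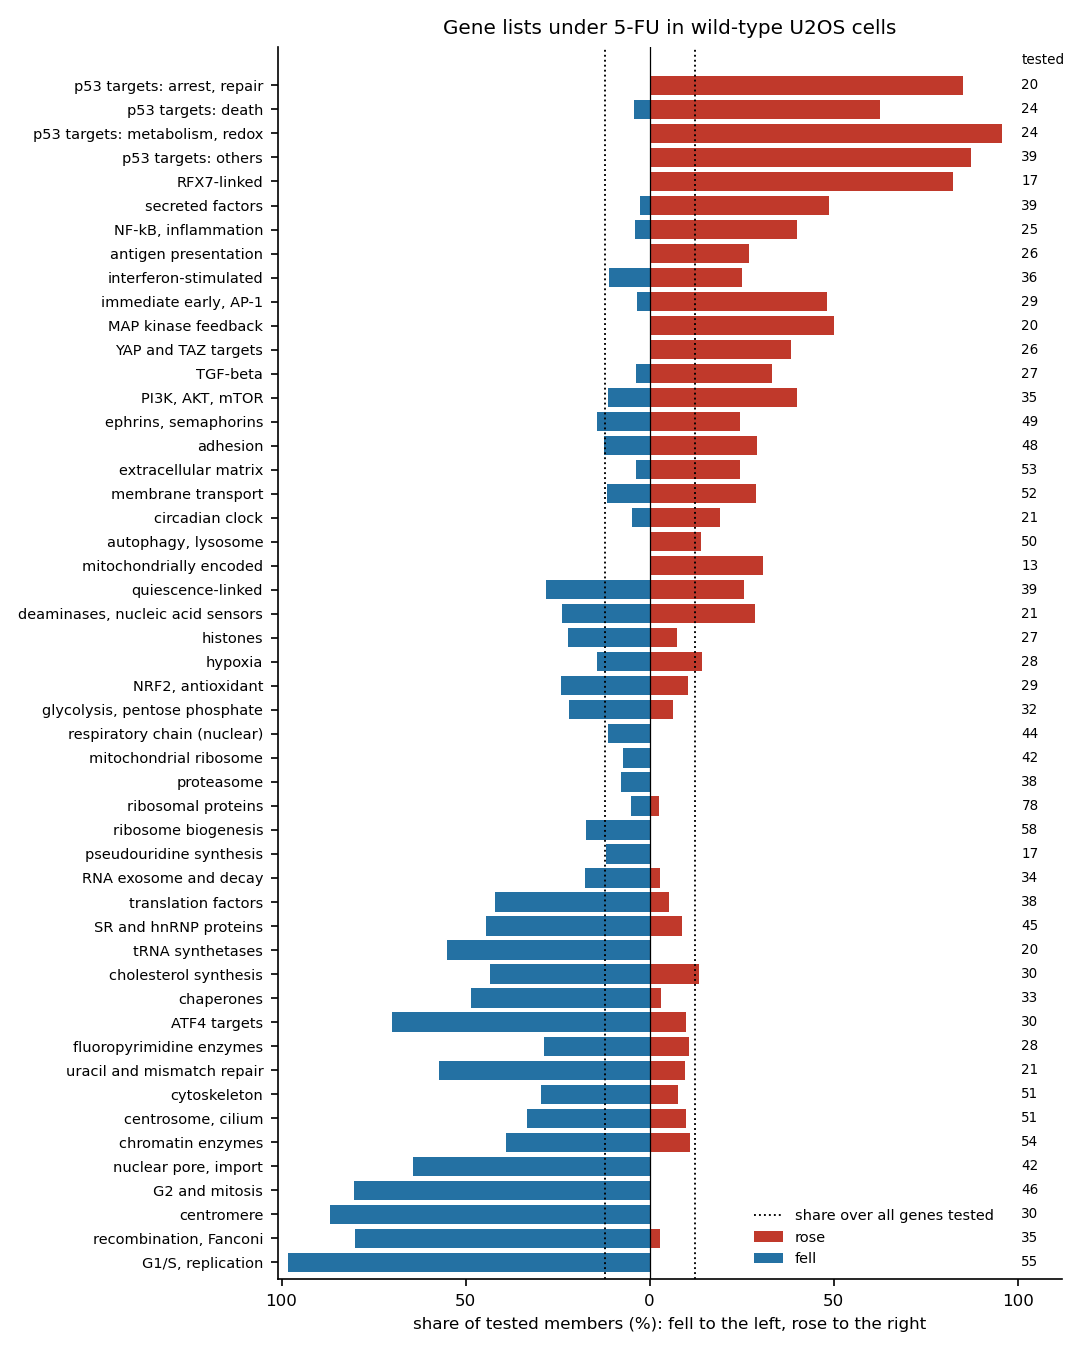
Share of the tested members of each list that rose (to the right, red) or fell (to the left, blue), in percent, with the number tested at the right edge and dotted lines at the shares over all genes tested, 12.2% and 12.1%. The metabolic, less studied and arrest and repair p53 targets and the RFX7-linked genes reach furthest to the right, at 95.8%, 87.2%, 85.0% and 82.4%, and the replication list, with 54 of 55 members, furthest to the left.

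Few ribosomal protein genes were called, whereas translation factors and tRNA synthetases, given below, fell more often than all genes. Of 78 cytosolic ribosomal protein genes, 2 rose (2.56%, 1 with any pair left out) and 4 fell (5.13%, 7 without pair 1), with a median of -0.06. RPL3 went from 1266 to 754 CPM (-0.70 ± 0.10), RPL10A from 394 to 243 CPM (-0.70 ± 0.10) and RPL12 from 450.5 to 299.6 CPM (-0.60 ± 0.10), and RPS19 rose from 512 to 716 CPM (0.49 ± 0.09). The paralog RPL22L1 was at 44.4, 63.1, 42.2 and 60.0 CPM under DMSO and 14.8, 16.6, 18.5 and 12.4 CPM under 5-FU. Every 5-FU library lay below every DMSO library (-1.74 ± 0.16). Of 58 ribosome biogenesis genes, 10 fell, a share of 17.2% against 12.1% of all genes, among them the box C/D snoRNP proteins NOP58 (-0.66 ± 0.12) and NOP56 (-0.48 ± 0.10), NOLC1 (-0.52 ± 0.10) and the RNA polymerase I factor UBTF (-0.45 ± 0.09). The share that fell was higher among genes of high level, at 21.8% in the highest of 6 groups of protein-coding genes. The 17.2% is therefore not read as particular to ribosome biogenesis. Among 34 exosome and RNA decay genes, 6 fell (17.6%, 3 without pair 1 and 3 without pair 2). In that list 1 rose (2.94%, 0 without pair 1, 0 without pair 2, 2 without pair 3 and 0 without pair 4). Of 17 pseudouridine synthase and related genes, 2 fell (0 without pair 2 and 1 without pair 4), a share of 11.8%, near the 12.1% of all genes.

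Of 38 translation factors, 16 fell (42.1%, against 12.1% of all genes, and 10 without pair 2). In that list 2 rose (5.26%, 1 with any pair left out), and the median was -0.27. EIF4B (647 to 399.9 CPM, -0.69 ± 0.09), the cap-binding inhibitors EIF4EBP1 (-0.77 ± 0.12) and EIF4EBP2 (-0.57 ± 0.10) and the elongation factor EEF2 (1587 to 1081 CPM, -0.54 ± 0.10) were among the decreases. Of 20 cytosolic aminoacyl-tRNA synthetases, 11 fell (55.0%, median -0.37), including AARS1 (-0.68 ± 0.10), YARS1 (-0.75 ± 0.11), TARS1 (-0.73 ± 0.11) and CARS1 (-0.61 ± 0.10). Of 45 splicing factors, 20 fell (44.4%, 10 without pair 2) and 4 rose (8.89%, below the 12.2% of all genes), with a median of -0.26. HNRNPF (469 to 252 CPM, -0.90 ± 0.09) and HNRNPA1 (1508 to 944 CPM, -0.67 ± 0.11) fell, while RBM14 (75.2 to 134 CPM, 0.84 ± 0.09), the kinase CLK4 (0.74 ± 0.12) and SRSF8 (0.54 ± 0.09) rose.

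ATF4 and most of its listed targets fell. ATF4, the transcription factor of the integrated stress response, was at 342, 359.8, 397 and 338 CPM under DMSO and 188, 215, 206 and 207 CPM under 5-FU. The groups did not overlap, with all 5-FU libraries lower (-0.82 ± 0.09). Of 30 genes in the ATF4 list, which holds ATF4 itself beside its targets, 21 fell (70.0%, against 12.1% of all genes). In that list 3 rose (10.0%, against 12.2%, and 1 without pair 2). The list median was -0.56 (by pair -0.53, -0.44, -0.81 and -0.51). The cystine transporter SLC7A11 was at 61.6, 107, 90.9 and 92.1 CPM under DMSO and 23.4, 65.9, 29.1 and 37.8 CPM under 5-FU. The groups overlapped, and 4 of 4 pairs moved down (-1.25 ± 0.14). The mitochondrial folate enzymes SHMT2 (201 to 108 CPM, -0.89 ± 0.09) and ALDH1L2 (-1.53 ± 0.18) and the asparagine synthetase ASNS (-0.90 ± 0.12) fell. SESN2, which is a target of both ATF4 and p53, rose as given above.

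Many chaperone genes fell as well. HSPA8, the constitutive HSC70 chaperone, was at 1035, 1343, 1463 and 1467 CPM under DMSO and 637, 648, 559 and 474 CPM under 5-FU. The 5-FU libraries were all lower, without overlap (-1.19 ± 0.14). Of 33 heat shock and unfolded protein response genes, 16 fell and 1 rose, including the mitochondrial co-chaperonin HSPE1 (-0.78 ± 0.11), HSPA1A (-0.96 ± 0.16) and the unfolded protein response factor XBP1 (-0.77 ± 0.10), and the small heat shock protein gene HSPB8 rose (0.56 ± 0.12). FKBP5, a co-chaperone of steroid receptors, fell from 30.2 to 10.5 CPM (-1.54 ± 0.12). DHRS2, a short-chain dehydrogenase with the largest loss in CPM, was at 2990, 3075, 4432 and 4698 CPM under DMSO and 1628, 1462, 2300 and 2532 CPM under 5-FU. Every 5-FU library lay below every DMSO library (-0.95 ± 0.10).

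In central carbon and energy metabolism the counts moved with single pairs. Of 32 glycolysis and pentose phosphate genes, 7 fell (4 without pair 1 and 4 without pair 2) and 2 rose (6.25%, 1 without pair 1 and 1 without pair 2). The share that fell was 21.9%, against 12.1% of all genes and 21.8% in the highest of 6 groups of protein-coding genes by level. The pentose phosphate enzymes PGD (193 to 116 CPM, -0.73 ± 0.09) and TKT (-0.43 ± 0.09) and the phosphofructokinase PFKP (-0.48 ± 0.10) fell, while the glucose transporter SLC2A3 rose from 41.6 to 82.5 CPM (0.95 ± 0.11). Of 44 nuclear oxidative phosphorylation genes, 5 fell (11.4%; 0 without pair 2, 3 without pair 3 and 1 without pair 4). IDH2, the mitochondrial isocitrate dehydrogenase, fell from 23.8 to 9.28 CPM (-1.33 ± 0.11). Of 13 mitochondrially encoded transcripts, 4 rose (30.8%, against 12.2% of all genes), or 2 without pair 2 and 2 without pair 4. In experiment 1 alone 13 rose, while in experiment 2 alone 3 rose and 1 fell. MT-CO3 (0.47 ± 0.11) and MT-ND6 (0.64 ± 0.13) rose, beside the higher mitochondrial share of counts given above. MT-ND6, which lies on the other strand from most mitochondrial genes, was at 5161, 2277, 121 and 94.3 CPM under DMSO and 7781, 3022, 164 and 207 CPM under 5-FU, so its level differed far more between the experiments than between treatments. Of 42 mitochondrial ribosome genes 3 fell (7.14%), and of 38 proteasome genes 3 fell (7.89%, and 1 gene without pair 4), both below the 12.1% of all genes.

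Of 30 cholesterol genes, 13 fell (43.3%, 8 without pair 2) and 4 rose (2 without pair 2 and 2 without pair 3), with a median of -0.28. The share that rose, 13.3%, was near the 12.2% of all genes. INSIG1, a sterol-regulated brake on cholesterol synthesis (34.99 to 18.3 CPM), the desaturase SCD (607 to 336 CPM, -0.86 ± 0.10), EBP (-0.78 ± 0.11) and SQLE (-0.67 ± 0.10) fell, and the cholesterol exporters ABCA1 (3.97 to 9.79 CPM, 1.34 ± 0.16) and ABCG1 (0.68 ± 0.13) rose. Of 28 hypoxia genes, 4 rose and 4 fell (2 without pair 3 and 2 without pair 4), 14.3% each way and so close to the shares over all genes. The arrestins TXNIP (12.7 to 32.7 CPM, 1.35 ± 0.18) and ARRDC4 (1.27 ± 0.21) rose and the carbonic anhydrase CA12 (-0.61 ± 0.13) fell. Of 29 NRF2 and antioxidant genes, 3 rose (5 without pair 3) and 7 fell (3 without pair 1, 4 without pair 2 and 3 without pair 3). The shares were 10.3% rising, below the 12.2% of all genes, and 24.1% falling, against 12.1%. The glutathione peroxidase GPX1 (143 to 215 CPM, 0.63 ± 0.12) rose and the glutathione reductase GSR (-0.47 ± 0.09) fell. Of 50 autophagy and lysosome genes, 7 rose (near the share over all genes; 3 without pair 2), led by the lysosomal protein DRAM1 (11.4 to 35.4 CPM, 1.62 ± 0.13).

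Of 52 membrane transport genes, 15 rose (28.8%) and 6 fell (11.5%). Beside SLC52A1, the amino acid transporter SLC43A2 (1.16 ± 0.12), the calcium channel subunit ORAI3 (3.66 to 12.1 CPM, 1.78 ± 0.19) and the zinc exporter SLC30A1 (0.86 ± 0.11) rose, while the neutral amino acid transporters SLC1A4 (-0.93 ± 0.14) and SLC1A5 (299.6 to 195 CPM, -0.66 ± 0.14) fell. Of 39 genes tied to quiescence and the G1 decision, 10 rose (25.6%, against 12.2% of all genes). In that list 11 fell (28.2%, against 12.1%, and 7 without pair 2). YPEL2 (12.9 to 38.7 CPM, 1.57 ± 0.11) and YPEL5 (0.81 ± 0.11) rose, as did the D cyclins CCND2 (93.5 to 229.8 CPM, 1.28 ± 0.10) and CCND1 (145 to 252 CPM, 0.77 ± 0.10). The CDK4/6 inhibitor CDKN2C (64.0 to 29.7 CPM, -1.12 ± 0.10), the pocket protein RBL1 (-1.08 ± 0.11) and CDKN1B, which encodes p27 (-0.59 ± 0.11), fell. Of 21 circadian genes 4 rose, including PER1 (0.61 ± 0.11), CRY2 (0.60 ± 0.12) and BHLHE40 (100.8 to 153 CPM, 0.57 ± 0.09), and 1 fell, BHLHE41 (-0.40 ± 0.10), which was not called without pair 2 (-0.34).

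Other marked decreases lay outside these groups. Of the 1893 genes that fell, 1448 were in none of the 58 lists. SPSB4 fell from 9.17 to 1.98 CPM (-2.23 ± 0.21), the cGMP phosphodiesterase PDE9A from 8.00 to 2.28 CPM (-1.84 ± 0.18), the lipoprotein lipase LPL from 9.37 to 2.88 CPM (-1.77 ± 0.21) and AHRR, the repressor of the aryl hydrocarbon receptor, from 10.1 to 2.99 CPM (-1.77 ± 0.17), although AHRR overlaps PDCD6. The nuclear envelope protein SYNE2 (57 to 25.5 CPM, -1.17 ± 0.09), CDCA7L (-1.26 ± 0.11), the inositol phosphatase IMPA2 (18.6 to 5.89 CPM, -1.60 ± 0.14) and TAFA5 (60.1 to 26.3 CPM, -1.12 ± 0.10) also fell. RPL3P4, annotated as a pseudogene of RPL3, had the most negative value of all genes tested (-3.68), at 2.17, 2.23, 3.67 and 42.1 CPM under DMSO and 1.33, 1.21, 0 and 0 CPM under 5-FU. It rested on 1 high DMSO library and on 5-FU libraries at 0: the log2 value was -2.01 without pair 4 and it was then not called, nor was it without pair 3 (-3.16), and reads of RPL3 may map there.

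**Figure D5:**
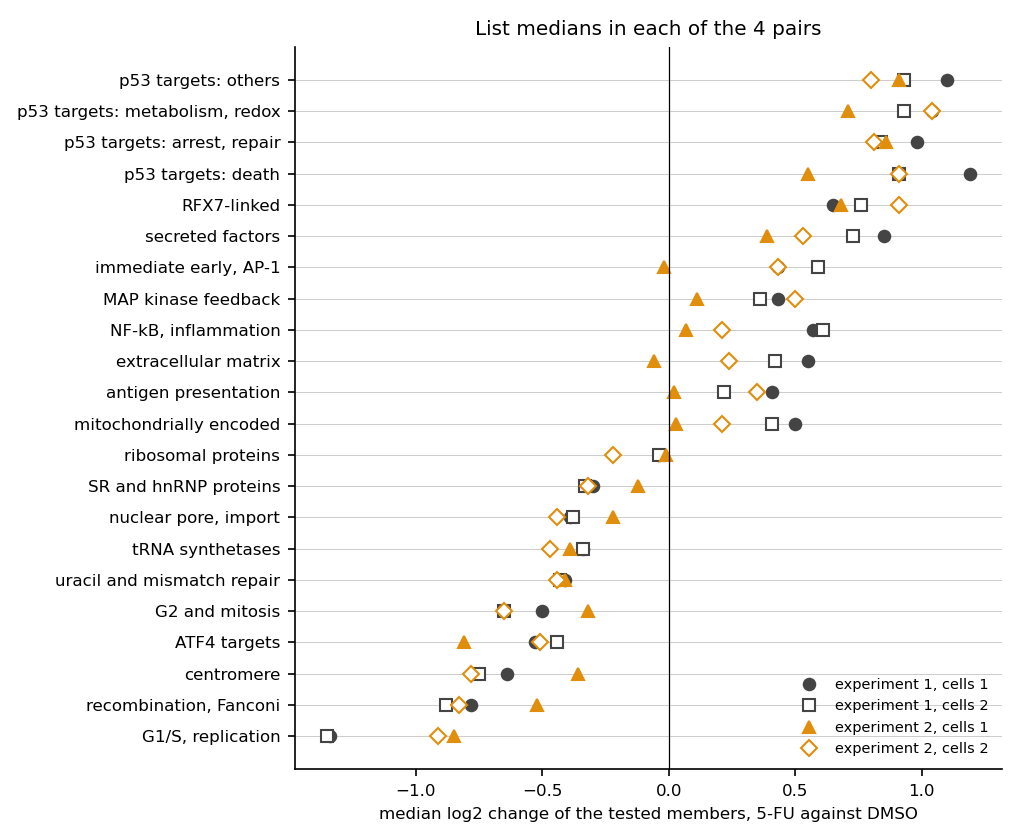
Median log2 change of the tested members of selected lists in each of the 4 pairs (horizontal axis), with symbols for experiment and cells number. The p53 target medians lie above 0 and the replication median below 0 in all 4 pairs, while pair 3 (filled triangles) lies at -0.02 for the immediate early genes and at -0.06 for the matrix genes.

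Long non-coding RNAs were read in experiment 1 alone, whose tables list Ensembl genes, so that the values below come from 2 pairs. Of 2814 long non-coding RNAs tested, 266 rose (9.45%) and 57 fell (2.03%), against 11.4% and 11.7% of all genes tested in that experiment, with a median of 0.20. Of 15 known p53-linked ones tested, 11 rose. PURPL, a p53-induced RNA, was at 8.48 and 13.9 CPM under DMSO and 69.1 and 77.0 CPM under 5-FU. NEAT1, the scaffold of paraspeckles, was at 388 and 348 CPM under DMSO and 1041 and 1045 CPM under 5-FU. In both, the 2 5-FU libraries lay far above the 2 DMSO libraries, with log2 fold changes of 2.72 ± 0.13 and 1.51 ± 0.09. MIR34AHG, the host of the miR-34a microRNA (2.32 ± 0.20), PINCR (2.91 ± 0.33), MIR22HG (1.19 ± 0.12) and PVT1 (1.23 ± 0.11) rose, as did FLJ16779 (4.56 ± 0.34) and LINC01173 (3.83 ± 0.41), the largest among those of at least 1 CPM. SCIRT (-2.03 ± 0.31), ATP2A1-AS1 (-1.82 ± 0.23) and TMPO-AS1 (-1.41 ± 0.32) fell. Of 24 snoRNA host genes, 7 fell, including SNHG3 (-0.54 ± 0.09) and SNHG16 (-0.40 ± 0.09), while GAS5 had a value of 0.02 ± 0.09. Unspliced nuclear RNA and antisense overlap can add to such counts, and their part was not tested.

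Few genes differed in response between the experiments by more than the pairs varied. A test of the treatment by experiment term called 6 of 15614 genes (0.0384%), with 1323 below 0.05 before adjustment and 58 called by DESeq2. With a pair left out, which leaves 1 pair in an experiment whose spread is then taken from the other, the count was 19 without pair 1, 22 without pair 2, 726 without pair 3 and 105 without pair 4. Of the genes called in the joint fit and tested in both experiments, 0 had opposite signs in the 2 experiments. Calling in the joint fit favours genes that move 1 way in all pairs, so this 0 is no separate measure of agreement. Among the 14716 protein-coding genes tested, changes depended somewhat on level. Over 6 nearly equal groups by mean CPM, the median was 0.223 in the lowest and -0.082 in the highest. In the lowest group 3.26% of genes fell, and in the highest 21.8%. The changes of these protein-coding genes depended less on gene length, with medians over 8 nearly equal groups of 0.095 in the shortest by genomic span and -0.013 in the longest.

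The wild-type response was then set beside that of the W329G cells. In the W329G cells 1625 of 15487 genes (10.5%) were called under 5-FU, 5.37% rising and 5.13% falling, and the 2 responses differed in 1010 of 16433 genes (6.15%), with 2.54% higher and 3.6% lower in the wild type. The W329G count was 295 without pair 1 and 206 without pair 3, and the count of differences was 461 without pair 1, 608 without pair 2 and 502 without pair 3. MDM2 changed by 0.11 in the W329G cells and the difference of the log2 fold changes was 1.83 (edgeR adjusted p = 9.95e-05), and for CDKN1A these values were 0.69 and 1.74 (edgeR adjusted p = 1.15e-04). RRM2B had a difference of 1.85 (edgeR adjusted p = 1.02e-04). For TYMS the change was -0.12 and the difference -0.26 (edgeR adjusted p = 0.298). The wild-type change was higher in 14 of 20 arrest and repair targets, 10 of 25 cell death targets, 18 of 25 metabolic targets, 25 of 40 less studied targets and 13 of 17 RFX7-linked genes. In the list of the feedback around p53 it was higher in 7 of 17 and lower in 1. It was lower in 47 of 55 replication genes and 21 of 35 recombination genes. In the G2 and mitosis list 4 of 46 differed, and 29 of them fell in the W329G cells too (median -0.42). The difference was called for 3 of 30 genes in the ATF4 list and 1 of 38 translation factors. It was called by edgeR for 0 of 20 tRNA synthetases, 12 of which fell in the W329G cells, with 3 below 0.05 before adjustment and 1 called by DESeq2, and for 0 of 33 chaperone genes, with 4 below 0.05 before adjustment and 2 called by DESeq2. For some genes described above the difference was not called, which does not show that the responses were equal. Given for wild type and then W329G, HSPA8 changed by -1.19 and -1.14, DHRS2 by -0.95 and -0.92, RPL22L1 by -1.74 and -1.70, IDH2 by -1.33 and -1.20, PDE9A by -1.84 and -2.15, and AHRR by -1.77 and -2.61. These genes were picked for their falls in the wild type and then for a difference that was not called, so no p is given. They are not typical of the large falls. Among the 15 largest decreases the median was -1.74 in wild type and -0.37 in W329G, where 6 of 15 fell. Picking by the wild-type values enlarges the wild-type median.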

How the data were processed

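Libraries were made from poly-A RNA with a TruSeq kit, per the labels' protocols. For each library the authors deposited raw counts per gene, with Ensembl identifiers and coordinates in experiment 1 (57500 genes) and gene symbols in experiment 2 (28890 genes), per the file headers. The submitters' processing notes name hg19, but 96.3% of the 56898 experiment 1 genes found in GENCODE release 29 share its starts and ends. No source used here gives the aligner, the counter or the strand setting. In experiment 2 all 26 values of 7 digits end in 0, so the highest counts are rounded.

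Counts were joined by symbol, 28443 genes directly and 247 through RefSeq synonyms, leaving out 19 ambiguous and 181 unmatched ones. The 8 wild-type libraries were fitted with edgeR 4.0.16 (R 4.3.3; filterByExpr, TMM factors, quasi-likelihood F test, a term per pair, 3 residual degrees of freedom), with Benjamini-Hochberg adjustment over all genes tested and a threshold of 0.05. CPM are relative to TMM-scaled totals. The standard error is the log2 fold change divided by the square root of F. Changes by pair used log2 CPM with a prior count of 2. The pairs come from the cells number and experiment in the titles. Deviations from the group mean correlated within pairs at r = 0.873 to 0.944 over 11297 genes. No 2 libraries of a group agreed within sampling noise (chi-square of 63.6 to 140.0 per degree of freedom). W329G libraries and the difference of responses were fitted the same way.

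Named genes were MDM2, CDKN1A, TYMS and RRM2B, the 15 largest changes each way of at least 5 CPM and 1 sign in all pairs, the 10 largest in CPM, up to 4 per list and direction by p, 5 non-coding RNAs and 10 genes in no list each way. E2F1, MCM6, PTCHD4, DUT, ASNS, CDKN2A and the genes with a p53 match were named after their values were seen. Some genes that the rule names are not reported here. The 58 lists and the members were chosen with earlier results of these data known. Alternatives covered scaling, DESeq2 1.42.0, the filter, the block, each experiment alone and each pair left out. A neighbouring gene was counted as overlapping from the experiment 1 coordinates.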

Additional observations from a re-analysis of the deposited data

Results flagged for a closer look

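A gap test (Dixon's ratio over the 4 pairs) was applied to 289 sets of values, mainly single genes and list medians over the 4 pairs. It set 1 value apart in 11 sets (3.81%), while chance alone gives about 1 in 20. Most sets were genes called from these same pairs, which favours pairs that agree, and the lists share members. The rate therefore cannot tell whether these values are more frequent than chance gives. In single genes, pair 1 was apart for SLC52A1 (3.35, next 2.53 to 2.65), BBS12 (0.45, others 0.77 to 0.78) and CDH4 (-0.34, others -0.78 to -0.71). Pair 3 was apart for EPHA2 (0.91, others 1.38 to 1.44) and RRM1 (-0.59, others -1.09 to -1.03), and pair 4 for PARD6G (1.14, others 1.62 to 1.69). All of these kept the sign of the other pairs.

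Among list medians, pair 2 was lowest for the fluoropyrimidine genes (-0.32, others -0.19 to -0.18) and the pseudouridine synthases (-0.20, others -0.07 to -0.05). Pair 4 was lowest for the ribosomal proteins (-0.22, others -0.04 to -0.01) and the NRF2 and antioxidant genes (-0.13, others -0.06 to -0.05). Pair 3 was highest for the splicing factors (-0.12, others -0.33 to -0.30).

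Differences between experiments were screened for the genes named in the text, and differences between genotypes for MDM2, CDKN1A, TYMS and RRM2B. RPL3P4 differed between the experiments by -11.84 on the log2 scale (edgeR adjusted p = 9.93e-06), a fitted value and no bound, since both 5-FU libraries of experiment 2 were at 0. The change in the wild type exceeded that in the W329G cells by 1.83 for MDM2 (edgeR adjusted p = 9.95e-05), 1.74 for CDKN1A (edgeR adjusted p = 0.000115) and 1.85 for RRM2B (edgeR adjusted p = 0.000102), each from the test of the genotype by treatment term.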

How the results depend on the processing

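The wild-type count of 3800 called genes stayed within 1.5 times of that value with DESeq2 size factors, DESeq2's test, no filter, all 16 libraries, no mitochondrially encoded genes and experiment 1 alone. It was 1958 in experiment 2 alone, 2365 and 1308 with DESeq2 in experiment 1 and 2 alone (alternatives chosen after seeing the data), 1939 at a threshold of 0.01 and 674 when a change of 1 or more on the log2 scale was also required. Without the pair as a replicate block it was 1065 with a term for experiment and 82 with treatment alone, where 63.4% of the calls rose against 50.2% with the block. Leaving out 1 pair gave 2458 to 3599. The W329G count of 1625 was 1 without the replicate block and 206 to 1362 with a pair left out. The count of differences was 1010, or 181 without the replicate block and 461 to 882 with a pair left out. The count between experiments was 6, or 58 with DESeq2, 111 without the filter and 19 to 726 with a pair left out. The rise in the mitochondrial share was 4.37 points over joined counts and 3.26 to 4.97 with a pair left out. Why these counts moved was not tested, except that an experiment alone or a pair left out has fewer samples and the stricter rules pass fewer genes.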

Other observations

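Several genes of the programme of DUX4, a transcription factor of the cleavage-stage embryo, had more counts under 5-FU. The set was drawn up after values were seen, so it carries no test of its own, and counts here are raw and not scaled for depth. Of 68 listed genes, 57 were joined, 3 of these were at 0 in all 8 libraries, and the summed count was higher under 5-FU in 43 and lower in 10. Summed over the list there were 1262, 1806, 3677 and 1781 counts under DMSO and 2568, 2433, 3394 and 4022 under 5-FU, lower under 5-FU in pair 3. ZSCAN4, a telomere-linked zinc finger gene, had 12, 15, 18 and 18 counts under DMSO and 96, 86, 53 and 178 counts under 5-FU, with every 5-FU library above every DMSO library (edgeR log2 fold change 2.73). TRIM49C went from 20, 35, 39 and 36 counts to 132, 118, 80 and 315 counts, and PRAMEF12 from 3, 12, 6 and 2 counts to 60, 59, 19 and 36 counts. Of 25 members that passed the filter on low counts, 17 rose and 2, CA2 and SNAI1, fell. The filter keeps low genes that are high in 1 group, so this count is no measure of the set. DUX4 itself had 2, 1, 43 and 15 counts under DMSO and 2, 4, 140 and 233 counts under 5-FU, so that its increase was seen in experiment 2, and LEUTX and DUXA stayed at 0 to 1 counts. KLF17 and RFPL4A were not called. The difference from the W329G response was called for 4 of 26 members tested. Many of these genes have near-identical copies, and the assignment of reads among them is uncertain.

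Several small families were picked after their values were seen. All 8 subunits of the CCT chaperonin, which folds tubulin and actin, fell (median -0.43), as did 6 of 8 HAUS subunits of the augmin complex, which branches spindle microtubules (-0.61), 9 of 14 tubulins (-0.59) and 5 of 6 condensin and cohesin SMC genes (-0.65). Of 7 plexin A and B genes 5 rose (median 0.91), and of 22 TNF receptor superfamily genes tested 8 rose (36.4%) and 1 fell (4.55%). Of 9 HOXB genes tested 4 rose (0.35), of 5 YPEL genes 4 rose and 1 fell, and of 59 TRIM genes 16 rose (27.1%) and 4 fell (6.78%). Among 461 zinc finger genes with ZNF symbols, 14.1% rose and 4.56% fell, against 12.2% and 12.1% of all genes tested.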
